A study of Homo sapiens with 24 samples.

Results

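The genes described here encode the nuclear subunits of the mitochondrial respiratory chain and of ATP synthase. They were taken by symbol from the probe annotation: NDUFA, NDUFB, NDUFC, NDUFS and NDUFV genes of complex I, SDHA to SDHD of complex II, UQCR genes and CYC1 of complex III, COX4 to COX8 genes of complex IV, and ATP5 genes of ATP synthase, without the NDUFAF assembly factors. The rule found 85 of the 20046 genes with a symbol on the array, with 114 probes; the probe of highest mean signal stood for each gene. Of these, 35 belong to complex I, 3 to complex II, 8 to complex III, 16 to complex IV and 17 to ATP synthase, and 6 are other genes that share the names, namely the supercomplex factor COX7A2L, the ATP synthase inhibitor ATP5IF1, the paralogue UQCRHL, the pseudogenes UQCRBP1 and ATP5F1EP2, and the antisense RNA NDUFB2-AS1.

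Complex I oxidises NADH and complex II oxidises succinate; both pass electrons through ubiquinone to complex III and from there, by cytochrome c, to complex IV, which reduces oxygen. Complexes I, III and IV pump protons across the inner mitochondrial membrane, and ATP synthase uses the return flow to make ATP. Most subunits are made from nuclear mRNAs in the cytosol, where a microRNA (miRNA) in an Argonaute complex can bind them, usually through its seed near the 5′ end. A biotinylated miRNA pulldown recovers RNA that associates with a transfected miRNA carrying a biotin tag, so a transcript's level in the captured RNA reflects both its abundance and its recovery.

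All RNA came from DU145 cells, a line established from a human prostate cancer, and was measured on 24 Illumina BeadChip arrays. The mimic experiment measured total RNA after transfection of NC1, of NC2 or of a mimic of miR-638, with 4 arrays for each. The pulldown experiment measured RNA recovered from cells that had received NC1, NC2, miR-17 or miR-638 in biotinylated form, with 3 arrays for each. NC1 and NC2 are non-targeting controls; total RNA of cells given miR-17 was not analysed here, and no label gives a time or a dose. Nothing in the labels says that replicates came from separate cultures, and the p-values then measure only the spread between these arrays, which may be technical, and fewer cells and less RNA per cell cannot be told apart.

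The miRNAs are shown because every comparison turns on them. The capitals mark the seed, bases 2 to 8, and the sequences are those of RefSeq (GRCh38.p14); miR-638 lies at chr19:10718419-10718443 and miR-17-5p at chr13:91350618-91350640, both on the plus strand.
hsa-miR-638: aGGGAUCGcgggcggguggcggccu
hsa-miR-17-5p: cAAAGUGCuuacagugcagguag
The labels name miR-17 without the arm, so the 5p arm is shown as the usual meaning of that name and not as a fact of the study. Their seeds differ, and miR-638 consists of G and C at 80% of its 25 bases against 47.8% of the 23 bases of miR-17-5p.

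RefSeq promoters, 250 bases before to 50 after the annotated start, were matched for 68 of the 85 genes. The letters GCGCA and GCGC with any 1 base between them, the core of sites of the nuclear respiratory factor NRF1, stood on either strand in 16 of the 68 windows (23.5%), against 6.28% of all 27305 promoters. The letters CCGGAAG, an ETS core of the kind GABP binds, stood in 19 (27.9%), against 10.7% of all promoters; 3 genes held both. A match is a description of letters and not a bound site. The 250 bases before the starts of NDUFA11, higher in the miR-638 pulldown, and COX5B, higher in the miR-17 pulldown, show one of each, with the match in capitals; it begins 98 bases before the start of NDUFA11 (chr19:5903791-5904040, minus strand, GRCh38.p14) and 37 bases before that of COX5B (chr2:97645812-97646061, plus strand).
NDUFA11: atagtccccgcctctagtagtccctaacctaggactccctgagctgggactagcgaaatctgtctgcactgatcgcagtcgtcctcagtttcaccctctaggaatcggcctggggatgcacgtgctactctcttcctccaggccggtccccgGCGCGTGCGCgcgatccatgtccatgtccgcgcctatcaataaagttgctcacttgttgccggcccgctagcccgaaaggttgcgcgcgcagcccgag
COX5B: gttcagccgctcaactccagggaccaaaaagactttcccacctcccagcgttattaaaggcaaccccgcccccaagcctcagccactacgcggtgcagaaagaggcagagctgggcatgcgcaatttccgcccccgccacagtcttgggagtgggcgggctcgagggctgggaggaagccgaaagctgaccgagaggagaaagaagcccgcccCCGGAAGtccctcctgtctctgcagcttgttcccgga
Of the 16 genes with a promoter that were higher in the miR-638 pulldown, 3 held the NRF1 letters and 6 the ETS letters; of the 9 higher in the miR-17 pulldown, 1 and 4 did. In the first 50 bases after the start, the DNA letters that pair with the miR-638 seed (CGATCCC) or the miR-17-5p seed (GCACTTT) stood in none of the 68 genes and in 0.117% and 0.198% of all promoters. Those for the seed of the other arm, miR-17-3p (ACTGCAG), stood in 1 of the 68 and in 0.681% of all; this says nothing of the rest of the transcripts.

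Levels are normalised log2 signals, so a difference of 1 is a doubling, and levels of different genes are not compared because each rests on its own probe. A probe counted as detected on an array where its deposited detection p was under 0.05. The arrays detected 43.6 to 47.1% of all probes in the mimic experiment and 44.3 to 47.8% in the pulldown. The epithelial markers KRT8, KRT19, EPCAM and CDH1 were detected on all 24 arrays, while the probe of KRT18, also epithelial, was detected on 7 of 12 mimic and 9 of 12 pulldown arrays. The luminal prostate markers KLK3, KLK2 and TMPRSS2 were detected on none. Of 10 blood and fibroblast markers, PTPRC, CD3E, HBA1, COL3A1 and LUM were detected on no array; LYZ was detected on 12 mimic and 8 pulldown arrays, COL1A1 on 10 and 12, COL1A2 on 12 and 11, HBB on 2 and 2 and DCN on 4 and 2, and the highest level among them was 6.43.

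Genes detected on at least 4 mimic arrays or 3 pulldown arrays were tested, which kept 76 members of 12624 genes in the mimic experiment and 78 of 13084 in the pulldown. COX4I2, COX6A2, COX7A1, COX7B2 and COX8C, isoforms of complex IV subunits known mainly from particular tissues such as muscle, lung or testis, were detected on no array. NDUFS6 and NDUFB2-AS1 were detected on 1 pulldown array each and were tested in neither experiment. COX6B2, the testis isoform of the COX6B subunit, entered the pulldown test through 1 miR-638 and 2 miR-17 arrays, and NDUFB4 through 11 of the 12 pulldown arrays; neither was detected after any mimic, and neither passed a test.

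The first question was which of these transcripts were recovered more with miR-638 than with the control pulldowns. Complex I, the largest group with 34 tested members, had 11 higher in the miR-638 pulldown, with the iron-sulphur subunits NDUFS7 and NDUFS8 at 2.08-fold and 1.93-fold. Higher were also 2 of 8 members of complex III, 3 of 17 of ATP synthase, 2 of 11 of complex IV and 0 of 3 of complex II. A difference between complexes was not tested. The F1 delta subunit ATP5F1D of ATP synthase was 2.13-fold higher, the small complex III subunit UQCR10 1.99-fold and the complex IV subunit COX5A 1.83-fold. In all, 18 of 78 members were higher (adjusted p under 0.05), which is 23.1%, where 6.58% of all genes tested were higher. In 20 members every miR-638 array lay above all 6 control arrays, where 8.19% of all genes did so, and in 1 below, where 6.7% did. No member was lower by limma's test, where 4.59% of all genes were lower; at an unadjusted p under 0.05, 25 members were higher and 3 lower. The median difference was 0.12 for the members and -0.01 for all genes.

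NDUFS7 (chr19:1383907-1395584) carries an iron-sulphur cluster near the quinone site of complex I. Its level was 10.92, 10.86 and 10.96 on the NC1 arrays, 10.63, 10.61 and 10.71 on the NC2 arrays, 11.83, 11.89 and 11.79 on the miR-638 arrays, and 11.12, 11.08 and 11.01 on the miR-17 arrays. The miR-638 arrays lay above all others, and the 4 groups did not overlap. It was higher with miR-638 by 1.05 (SE 0.06, adjusted p = 2.99e-07).

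NDUFS8 (chr11:68030681-68036644), the neighbouring iron-sulphur subunit, stood at 12.26, 12.14 and 12.15 with NC1, 12.28, 11.83 and 11.99 with NC2, 13.04, 13.08 and 13.05 with miR-638, and 12.37, 12.26 and 12.39 with miR-17. The miR-638 arrays were again apart from the other 9, while miR-17 overlapped the controls. The difference with miR-638 was 0.95 (SE 0.08, adjusted p = 1.12e-05).

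ATP5F1D (chr19:1241751-1244825) encodes a subunit of the central stalk that turns inside ATP synthase. Its levels were 11.44, 10.99 and 11.37 with NC1, 11.10, 10.73 and 11.28 with NC2, 12.19, 12.43 and 12.12 with miR-638, and 11.34, 11.55 and 11.36 with miR-17. The difference was 1.09 (SE 0.13, adjusted p = 1.01e-04), with the miR-638 arrays above all control arrays. A second probe of the gene gave 1.39.

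COX5A (chr15:74919791-74938073), a nuclear-encoded subunit on the matrix side of complex IV, stood at 11.51, 11.44 and 11.48 with NC1, 11.49, 11.41 and 11.47 with NC2, 12.48, 12.23 and 12.31 with miR-638, and 11.98, 11.98 and 11.94 with miR-17. Both miRNA pulldowns exceeded every control array, and miR-638 exceeded miR-17. Against the controls COX5A was higher by 0.87 with miR-638 (SE 0.06, adjusted p = 1.83e-06) and by 0.50 with miR-17 (SE 0.06, adjusted p = 1.60e-04).

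UQCR10 (chr22:29767369-29770413) stood at 9.15, 8.62 and 9.29 with NC1, 9.46, 8.82 and 8.92 with NC2 and 9.93, 10.09 and 10.09 with miR-638. The controls spread over more of the scale than the miR-638 arrays but did not reach them, and the difference was 1.00 (SE 0.15, adjusted p = 0.00107). The other 2 probes of UQCR10 gave 0.20 and 0.42 and did not pass the test, so the size for this gene depends on the probe.

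A further 6 accessory subunits of complex I were higher with miR-638, with every miR-638 array above all 6 control arrays: NDUFA11 by 0.76, NDUFA13 by 0.64, NDUFA3 by 0.57, NDUFB10 by 0.52, NDUFB11 by 0.47 and NDUFA7 by 0.40. NDUFA11 (chr19:5891229-5903790), which sits where complex I meets complex III in the supercomplex, stood at 11.16, 10.74 and 11.10 with NC1, 11.17, 10.87 and 10.74 with NC2, and 11.68, 11.83 and 11.65 with miR-638. NDUFA10 was higher by 0.37, but its miR-638 levels of 9.70, 9.60 and 9.71 overlapped the NC1 levels of 9.58, 9.64 and 9.40. Against NC1 alone NDUFA10 differed by 0.13 (adjusted p = 0.465), and it was the 1 member that differed between the control pulldowns on this probe. Its second probe gave 0.48 for miR-638 against the controls (limma's p adjusted over all probes 0.0347).

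The dimmest calls were NDUFC2, higher by 0.75 (adjusted p = 0.0252), and NDUFS1, the largest core subunit of complex I, higher by 0.75 (adjusted p = 0.0440). NDUFC2 was detected on 1 of 3 NC1 and 2 of 3 NC2 pulldown arrays, and NDUFS1 on 2 of 3 in each, so their control levels lie near the background. Among the remaining calls, ATP5PD of the peripheral stalk was higher by 0.28 (0.11 and not past the test on its second probe), the ubiquitous COX8A isoform by 0.34, and UQCRQ, a small ubiquinone-site subunit of complex III, by 0.34.

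Other core subunits did not pass. The complex III core protein UQCRC1 differed by -0.20 (adjusted p = 0.0693, and -0.25 with 0.0486 against NC1 alone), cytochrome c1 (CYC1) by 0.08, and the complex II flavoprotein SDHA by -0.26 (adjusted p = 0.0694). None of SDHA, SDHC and SDHD passed with miR-638 in limma's test on the probe of highest signal. The second SDHA probe gave -0.39 (SE 0.11) and passed in limma's fit of all probes (adjusted p = 0.0414). The same held for NDUFB3, whose second probe gave 0.43 against 0.18 on the brighter one.

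**Figure D1:**
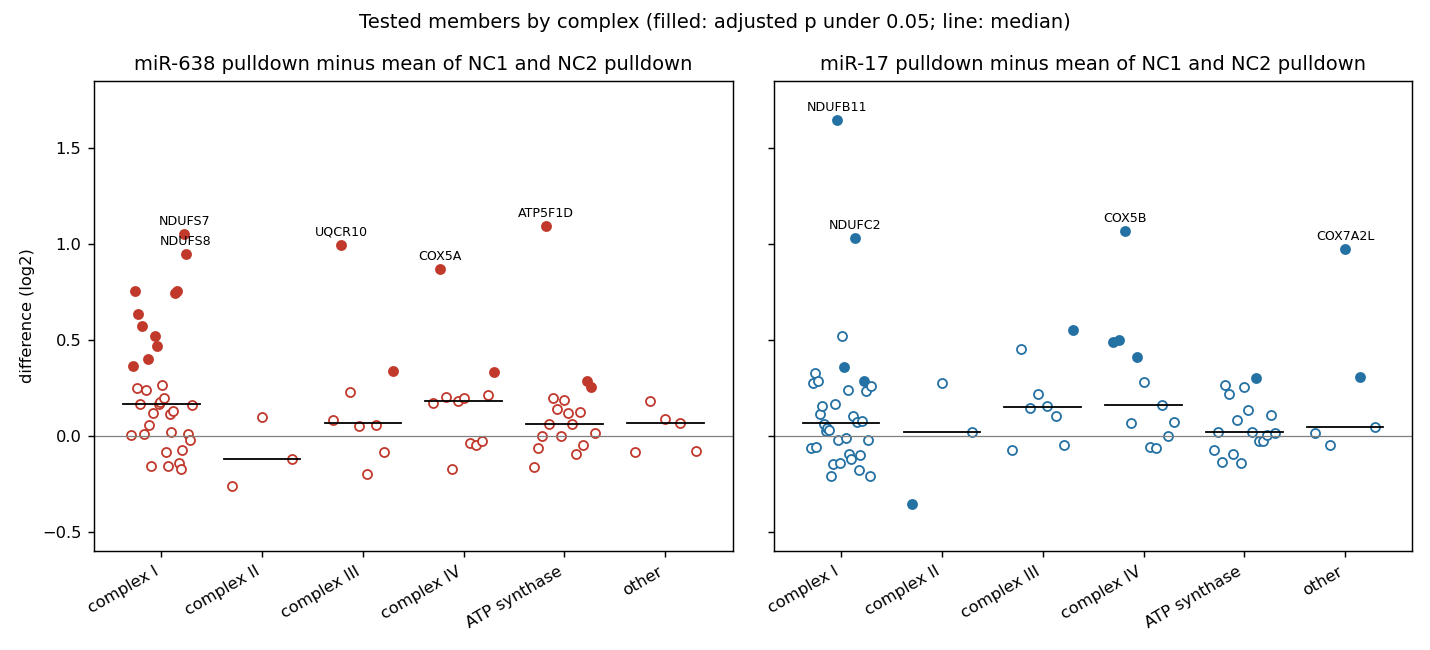
Difference of each tested member, in log2 units, between the miR-638 pulldown (left) or the miR-17 pulldown (right) and the mean of the NC1 and NC2 pulldowns, grouped by complex; filled points had an adjusted p under 0.05 and lines are medians. With miR-638 the filled points are 18 genes above 0, of which 11 are among the 34 tested members of complex I. With miR-17 they are 12 above and 1 below.

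ATP5PF, coupling factor 6 of the peripheral stalk, was called higher by 0.25 on its brightest probe, yet its probes disagreed. Probe ILMN_1652806 was lower with miR-638 by 1.55 on the log2 scale (a difference of -1.55, SE 0.11, limma's p adjusted over all probes 2.52e-06), and ILMN_1772929 gave 0.18 and did not pass. With the mean of the 3 probes the gene was lower, with a difference of -0.37 (adjusted p = 0.0113). The direction for ATP5PF therefore belongs to the probe and is not stated for the gene.

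**Figure D2:**
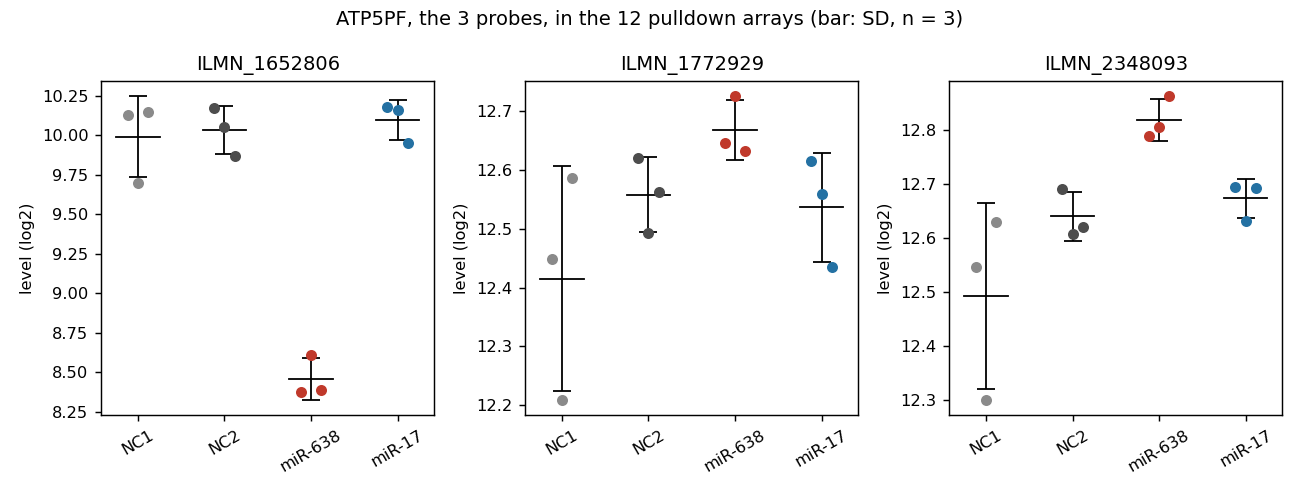
Normalised log2 level of the 3 ATP5PF probes on the 12 pulldown arrays (points), with the mean and SD of each group of 3. ILMN_1652806 is lowest with miR-638 (a difference of -1.55 from the controls), while the other 2 probes show differences of 0.18 and 0.25.

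In limma's test against each control alone, 11 members were higher with miR-638 both times, where 2.65% of all genes were: NDUFS7, NDUFS8, NDUFA3, NDUFA7, NDUFA11, NDUFA13, NDUFB10, NDUFB11, ATP5F1D, UQCR10 and COX5A. Without miR-638 replicate 1, 2 or 3 the count of members called fell to 10, 9 and 9, with 2 miR-638 arrays left each time. The share of all genes called in those fits is not given here, so nothing particular to the members is read from the fall. Computed from the authors' own value table, 2 members passed, where 0.703% of all genes did, and these were NDUFS7 and NDUFS8.

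The calls are also given by chromosome, with chromosomes 19 and 11 chosen after the calls were seen and no test of a difference between chromosomes. On chromosome 19, 6 of 10 tested members were higher: NDUFS7, ATP5F1D, NDUFA11, NDUFA3, NDUFA13 and NDUFA7. Of all tested genes of chromosome 19, 102 of 926 were higher, and their median difference was 0.09. On chromosome 11, 3 of 7 members were higher, as were 77 of all 755 genes, and on the other chromosomes 9 of 61 members and 682 of all 11392 genes. With miR-17, 2 of the 10 chromosome 19 members were higher, as were 91 of its 926 genes.

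For miR-17 the same question gave 12 members, of which 4 belong to complex IV and 4 to complex I, which had 34 tested. A difference between complexes was not tested. COX5B was 2.10-fold higher, COX4I1 1.40-fold, COX5A 1.41-fold and COX6B1 1.33-fold, so 4 of the 11 tested complex IV members were higher. The largest difference was that of NDUFB11 of complex I, at 3.13-fold, and the supercomplex factor COX7A2L was 1.96-fold higher. In all, 12 of 78 members were higher, where 8.29% of all genes were, and 1 was lower, where 5.99% were. In 16 members the miR-17 arrays lay above all control arrays and in 2 below, where 9.33% and 7.39% of all genes did so. The members' median was 0.07, against 0.00 for all genes.

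NDUFB11 (chrX:47142216-47145491), an accessory subunit of the distal membrane arm, stood at 9.58, 9.32 and 9.49 with NC1, 9.63, 9.50 and 9.25 with NC2, 9.92, 9.87 and 10.01 with miR-638, and 11.12, 11.09 and 11.11 with miR-17. The miR-17 arrays lay more than 1 log2 unit above every other array, and miR-638 lay between them and the controls. The difference with miR-17 was 1.65 (SE 0.09, adjusted p = 5.77e-08).

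COX5B (chr2:97646062-97648383), the zinc-binding subunit of complex IV, stood at 11.40, 11.25 and 11.38 with NC1, 11.37, 11.48 and 11.25 with NC2, 11.45, 11.56 and 11.66 with miR-638, and 12.53, 12.40 and 12.34 with miR-17. The miR-17 arrays were apart from the other 9, and miR-638 overlapped the controls. The difference was 1.07 (SE 0.08, adjusted p = 5.72e-07).

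COX7A2L (chr2:42335559-42368957) encodes the factor that joins complexes III and IV into a supercomplex. Its levels were 10.48, 10.49 and 10.55 with NC1, 10.46, 10.69 and 10.62 with NC2, 10.64, 10.57 and 10.69 with miR-638, and 11.56, 11.48 and 11.52 with miR-17, a difference of 0.97 (SE 0.07, adjusted p = 5.46e-07). COX4I1, the ubiquitous form of the regulatory subunit IV, stood at 13.60, 13.63 and 13.69 with miR-17 and between 13.10 and 13.20 on the 6 control arrays. It was higher by 0.49 (SE 0.05).

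UQCRQ was higher by 0.55, NDUFB5 by 0.36, COX6B1 by 0.41 and NDUFS7 by 0.29. ATP5MJ, a small membrane subunit of ATP synthase, was higher by 0.30, and the probe of the pseudogene UQCRBP1, which may also read its parent gene, by 0.31. NDUFC2, near background in the controls as above, was higher by 1.03. SDHA was lower, at 11.37, 11.23 and 11.33 with miR-17 against 11.45 to 11.91 on the control arrays, a difference of -0.36 (SE 0.09, adjusted p = 0.0155); its second probe gave -0.21 and did not pass. Among members whose brightest probe did not pass with miR-17, 1 other probe each passed for ATP5ME (0.52), NDUFV3 (0.53) and ATP5IF1 (0.36). Against each control alone 8 members were higher both times, where 4.07% of all genes were: COX4I1, COX5A, COX5B, COX7A2L, NDUFB5, NDUFB11, NDUFC2 and UQCRQ. Computed from the authors' values, 3 members passed, where 1.57% of all genes did.

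**Figure D3:**
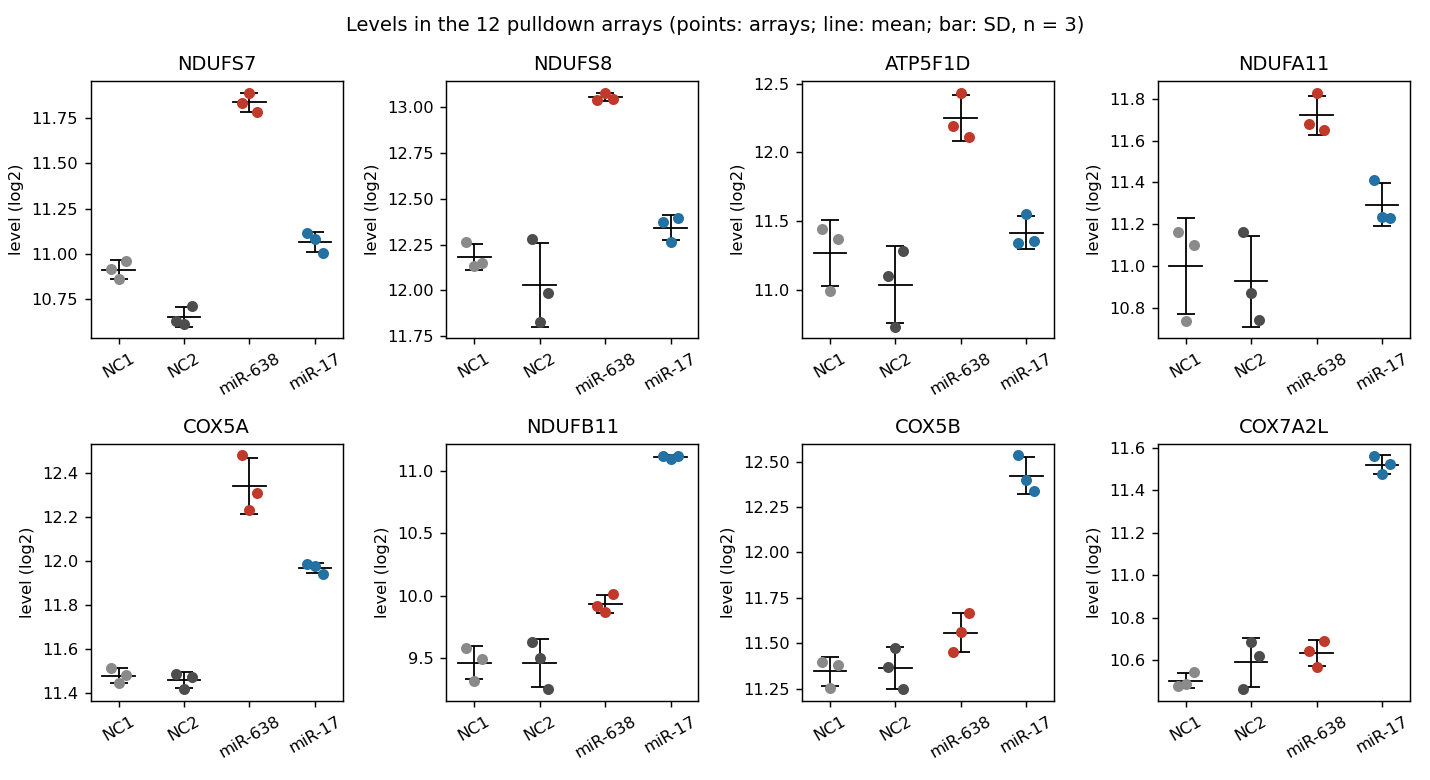
Normalised log2 level of 8 members on each of the 12 pulldown arrays (points), with the mean and SD of the 3 arrays per group. NDUFS7, NDUFS8, ATP5F1D, NDUFA11 and COX5A are highest with miR-638, and NDUFB11, COX5B and COX7A2L with miR-17.

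Both miRNA pulldowns were compared with the same 6 control arrays, so the overlap of their calls is no result; the 5 members called higher in both were NDUFS7, COX5A, NDUFB11, NDUFC2 and UQCRQ. The direct test of miR-638 against miR-17 needs no control. In it 6 members were higher with miR-638 and 6 with miR-17, where 3.29% and 5.13% of all genes were. Higher with miR-638 were ATP5F1D by 0.83 (SE 0.14), NDUFS7 by 0.77 (SE 0.07), NDUFS8 by 0.71 (SE 0.10), NDUFA11 by 0.43, COX5A by 0.37 and NDUFB10 by 0.35. Higher with miR-17, as negative differences, were NDUFB11 with -1.18 (SE 0.10), COX7A2L with -0.89 (SE 0.08), COX5B with -0.86 (SE 0.09), ATP5MJ with -0.39, UQCRC1 with -0.35 and COX4I1 with -0.32. Other probes passed for 2 members whose brightest did not: ATP5PF probe ILMN_1652806 gave -1.64 (limma's p adjusted over all probes 4.85e-06), and the second NDUFB3 probe gave 0.48 (0.0249 by the same adjustment), against 0.32 on the brightest.

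Among complex IV subunits the direction was thus split: COX5A was higher with miR-638, and COX5B and COX4I1 with miR-17. UQCR10 differed by 0.54 (SE 0.18, adjusted p = 0.0763) and did not pass. Fitted on the 6 miRNA arrays alone, where the spread was smaller, 31 members passed (20 higher, 11 lower with miR-638), where 20.1% of all genes did. The median SD of a member between replicates was 0.07 in each miRNA pulldown and 0.16 and 0.15 in the NC1 and NC2 pulldowns. From the authors' values, 4 members passed (2 higher, 2 lower), where 1.01% of all genes did, and the difference of ATP5MJ was 0.09.

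**Figure D4:**
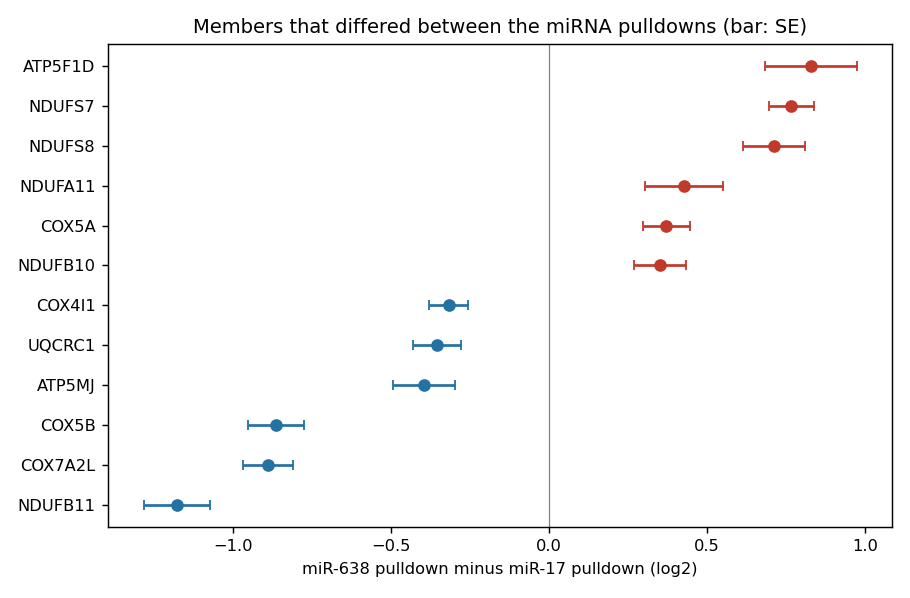
Difference in log2 level between the miR-638 and miR-17 pulldowns for the 12 members with an adjusted p under 0.05 (points), with its SE (bars). The 6 members above 0 reach 0.83 (ATP5F1D) and the 6 below reach -1.18 (NDUFB11).

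Between the control pulldowns 13 of 78 members had an unadjusted p under 0.05 in limma, where 20.7% of all genes did. The members' differences ran from -0.47 to 0.44. NDUFA10 was the 1 member past the test, at 9.58, 9.64 and 9.40 with NC1 and 8.92, 9.18 and 9.11 with NC2, a difference of -0.47 (SE 0.11, adjusted p = 0.0204), where 4.7% of all genes passed. Its second probe gave a difference of -0.0019 (limma's p adjusted over all probes 0.997), so this call rests on 1 probe. NDUFS7 with -0.26 (adjusted p = 0.0547), ATP5MC1 with -0.37 (adjusted p = 0.0623) and NDUFA6 with 0.34 (adjusted p = 0.0770) followed and did not pass. The NC1 and NC2 pulldown columns are exchanged between the deposited signal table and the authors' value table, so the sign of these differences is unsettled. The mean of both controls, used in the main comparisons above, does not depend on which names are right. Pulldown levels given under NC1 or NC2, and differences from a named control alone, do depend on it. In the authors' table NDUFA10 has a difference of 0.79.

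The next question was whether a miR-638 mimic changed the levels of these transcripts in total RNA. 1 member of 76 passed. NDUFB5, an accessory subunit of complex I, was higher by 0.55 (1.46-fold, SE 0.08, adjusted p = 0.00288), where 2.02% of all genes were higher. No member was lower by limma's test on the brightest probe, where 1.33% of all genes were lower; at an unadjusted p under 0.05, 3 members were higher and 7 lower. The members' median difference was -0.05. The second probe of ATP5MG, the g subunit of ATP synthase, gave a lower level, a difference of -0.32 (SE 0.07, limma's p adjusted over all probes 0.0389), against -0.11 on the brightest.

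Same-numbered arrays of the mimic experiment varied together, and with the replicate number as a block 6 members passed: NDUFB5 and ATP5MK higher, and UQCRQ, ATP5F1D, NDUFA7 and NDUFA6 lower, where 10.2% and 9.12% of all genes were higher and lower. The share of members called is thus below that of all genes.

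The level of NDUFB5 (chr3:179604794-179627647) was 11.57, 11.55, 11.82 and 11.85 with NC1, 12.46, 12.33, 12.58 and 12.60 with NC2, and 12.55, 12.67, 12.61 and 12.74 with miR-638. NC1 was low and the miR-638 arrays overlapped NC2. Against NC2 alone the difference was 0.15 (adjusted p = 0.385), so the call rests on NC1.

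UQCRQ (chr5:132866642-132868847) stood at 12.64, 12.72, 13.16 and 13.16 with NC1, 12.81, 12.76, 13.26 and 13.17 with NC2, and 12.18, 12.02, 12.88 and 12.90 with miR-638. Replicates 1 and 2 were lower than 3 and 4 in each group, and within each pair the miR-638 arrays lay below the controls. The difference of -0.47 had an adjusted p of 0.235 without the block and 1.36e-05 with it. It was -0.63 within replicates 1 and 2 and -0.30 within 3 and 4.

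ATP5F1D stood at 9.78, 9.84, 10.38 and 10.44 with NC1, 10.45, 10.33, 10.66 and 10.73 with NC2, and 9.59, 9.52, 10.09 and 10.30 with miR-638. Again the miR-638 arrays lay below the controls of their own pair. The difference was -0.45, and limma gave an adjusted p of 0.222 without the block and 3.89e-05 with it. The controls also differed from each other, NC2 being above NC1 by 0.43 (limma's adjusted p 1.37e-04 with the block). Against NC1 alone the miR-638 difference was -0.24 (limma's adjusted p 0.786, without the block), so its size depends on the control. The second probe gave -0.55 (limma's p adjusted over all probes 0.0318, without the block). ATP5F1D and UQCRQ, lower after the mimic in the blocked test, were both higher in the miR-638 pulldown, as was NDUFA7, which differed by -0.19 after the mimic (adjusted p = 0.0171 with the block). For NDUFA7 the difference was -0.11 against NC1 alone (limma's adjusted p 0.681, without the block), and NC2 was above NC1 by 0.17 (0.0478 with the block). For UQCRQ the controls differed by 0.08 (0.401 with the block). The mimic and pulldown experiments share no arrays. The share of all genes called in both ways was not counted, so nothing particular is read from these 3 genes.

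ATP5MK, a small subunit that stabilises ATP synthase in the membrane, stood at 8.47, 8.59, 8.79 and 8.71 with NC1, 8.13, 7.86, 8.71 and 8.64 with NC2, and 8.92, 8.64, 9.08 and 9.25 with miR-638. Its difference of 0.48 had an adjusted p of 0.153 without the block and 2.76e-04 with it. Here too the controls differed, with -0.31 for NC2 against NC1 (limma's adjusted p 0.0168 with the block). NDUFA6, an accessory subunit of complex I, differed by -0.20 (adjusted p = 0.0471 with the block).

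Other members that led the miR-638 pulldown did not pass after the mimic, with or without the block. NDUFS7 differed by -0.16 (SE 0.07), with an adjusted p in limma of 0.305 without the block and 0.0555 with it. Within replicates 1 and 2 alone it was lower, with -0.29 (adjusted p = 0.00707), and within 3 and 4 it differed by -0.04 (adjusted p = 0.821). NDUFS8 differed by 0.12 (SE 0.13), COX5A by -0.09 (SE 0.08) and UQCR10 by -0.05 (SE 0.07). Of the 18 members higher in the pulldown, 12 (66.7%) had a mimic difference below 0, close to the 49 of all 76 tested members (64.5%), so the count says nothing particular about them.

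Within replicates 1 and 2 alone 11 members passed for the mimic, 3 higher and 8 lower, where 17.7% of all genes passed. Within replicates 3 and 4 it was 2 higher and 3 lower, where 6.73% passed. Both pairs called NDUFB5 and ATP5MK higher and UQCRQ and ATP5F1D lower. The test of the difference between the pairs passed for 0 of 76 members in limma, where 0.507% of all genes passed, and 7 members had an unadjusted p under 0.05.

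**Figure D5:**
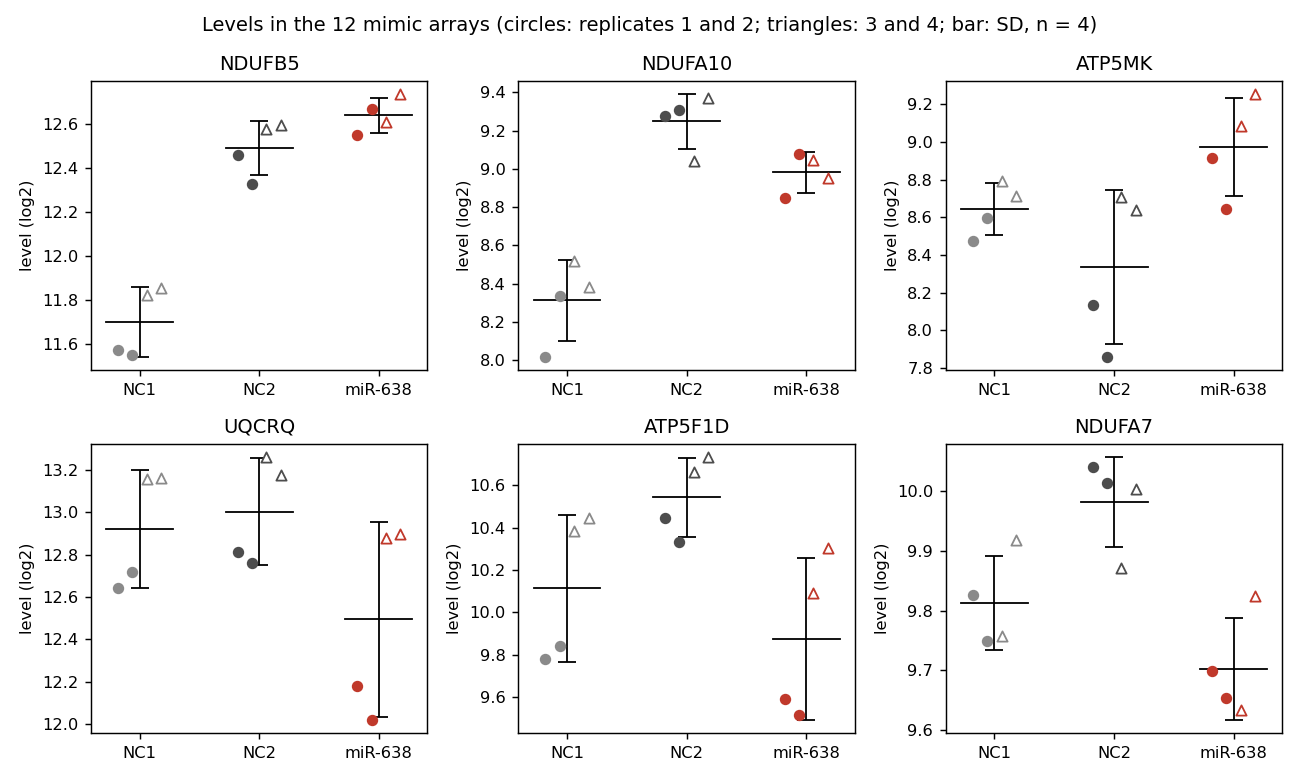
Normalised log2 level of 6 members on the 12 mimic arrays, with circles for replicates 1 and 2, triangles for replicates 3 and 4, and the mean and SD of each group of 4. NDUFB5 and NDUFA10 are low with NC1, and UQCRQ and ATP5F1D with miR-638 lie below the controls of the same replicate pair.

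The 2 control mimics differed from each other in more members than miR-638 did from their mean. The same order held for all genes, with 10.1% and 3.35% called, so it is not particular to the members. NC2 was above NC1 for NDUFA10 by 0.94 (SE 0.12, adjusted p = 3.07e-04), NDUFB5 by 0.79, ATP5MC1, a gene of the c ring, by 0.37, the inhibitor ATP5IF1 by 0.32 and COX4I1 by 0.28. That is 5 of 76 higher, where 5.15% of all genes were, and 0 lower, where 4.96% were; 14 were higher and 0 lower at an unadjusted p under 0.05 in limma. The second probes of ATP5MC1 and ATP5IF1 gave -0.01 and -0.03 and did not pass, and the second probe of NDUFB3 passed with 0.34. The second probe of NDUFA10 gave 0.93. With the replicate block 20 members were higher and 1 lower, where 16.7% and 16.3% of all genes were. NDUFA10 stood at 8.02, 8.33, 8.52 and 8.38 with NC1, 9.28, 9.31, 9.04 and 9.37 with NC2, and 8.85, 9.08, 9.05 and 8.95 with miR-638, and these 3 ranges overlapped only between NC2 and miR-638.

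The replicate pairs of the mimic experiment differed in 38 of 76 members, where 55.3% of all genes did, so the split is not particular to the members. This fit held group and pair together. The treatment counts without the block left the split in the spread, so the counts are not compared. Replicates 3 and 4 were above 1 and 2 in 20 members and below in 18, where 25.4% and 29.9% of all genes were. With median scaling it was 13 and 25, where 55.5% of all genes were called in either direction. From the authors' values it was 23 and 10, where 42.4% were. SDHD, a membrane anchor of complex II, was higher in replicates 3 and 4 by 0.60 (SE 0.05), NDUFA2 by 0.57, UQCRQ by 0.57, COX8A by 0.52, ATP5F1D by 0.52 and NDUFS8 by 0.38, and lower were NDUFB9 with -0.45 and UQCRBP1 with -0.37. The labels do not say what sets these numbers apart.

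Control pulldown RNA was also set beside control total RNA, 6 arrays against 8, normalised together. Here 39 of 76 members were lower in the pulldown and 16 higher, where 31.0% and 32.2% of all genes were. The kind of RNA and the experiment cannot be told apart. Complex I had 19 of 33 members lower and 4 higher, and ATP synthase 10 of 17 lower and 3 higher. COX6B1 was higher by 2.07, from 10.27 ± 0.22 (SD, n = 8) in total RNA to 12.34 ± 0.21 (SD, n = 6), and the complex III hinge subunit UQCRH, whose probe may also read UQCRHL, by 1.71. ATP5MC2 was higher by 0.99 and UQCRBP1 by 1.68. NDUFB11 had a difference of -1.81, COX5A of -1.70, NDUFA13 of -1.56 and COX7A2L of -1.38.

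With median scaling 10 of 76 members were higher and 50 lower, where 68% of all genes were called in either direction. The median of all genes moved to -0.16 while that of the members was -0.59, against 0.00 and -0.29 in the main setting. The members' median was below that of all genes in both. From the authors' values 15 members were higher and 29 lower, where 53.2% of all genes were called in either direction. Of the 18 members higher in the miR-638 pulldown, 10 were among those lower in control pulldown than in control total RNA, and so were 8 of the 12 higher with miR-17; the control pulldowns enter both comparisons, so no more is read from these counts.

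Other genes of the pathway were counted in the same comparisons, to be read against the shares of all genes, 6.58% higher and 4.59% lower in the miR-638 pulldown, 8.29% and 5.99% in the miR-17 pulldown, and 2.02% and 1.33% after the mimic. With few genes in a list, 1 or 2 calls lie near those shares.

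In the miR-638 pulldown, 5 of 21 tested complex IV assembly genes were higher and 1 lower, led by the COX1 translation activator TACO1 with 0.63, the haem synthesis enzyme COX10 with 0.50 and COA4 with 0.60. Of 16 complex I assembly genes, 0 were higher and 1, NDUFAF5, lower with -0.43; in limma 3 had an unadjusted p under 0.05. Of 13 genes of mitochondrial DNA expression, SSBP1, a single-stranded DNA-binding protein, was higher by 0.38, and the transcription factor MTERF3 with -0.37 and the DNA polymerase POLG with -0.30 were lower. GABPA, an ETS regulator of respiratory genes, was the 1 of 8 biogenesis regulators that passed, with -0.52. In limma 0 passed of 15 genes of pyruvate dehydrogenase and the citric acid cycle, 13 assembly genes of complexes II, III and V, and 15 of cytochrome c, acyl carrier and quinone, where 3, 3 and 1 had an unadjusted p under 0.05.

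In the miR-17 pulldown, 3 of 21 complex IV assembly genes were higher, COX10 by 0.72, COA5 by 0.43 and TACO1 by 0.34, and 2 of 16 for complex I, NDUFAF3 by 0.76 and NDUFAF6 by 0.38. The haem lyase HCCS, which attaches haem to cytochrome c, was higher by 1.46 (SE 0.09), the 1 call among 15 genes of cytochrome c, acyl carrier and quinone. Of 13 genes of mitochondrial DNA expression, TEFM, an elongation factor, was higher by 0.51, and TFB1M with -0.44 and MTERF3 with -0.32 were lower. PDHX of pyruvate dehydrogenase was the 1 of 15 that passed in its list, higher by 0.35. By limma's test 0 of 13 assembly genes of complexes II, III and V and 0 of 8 biogenesis regulators passed, where 1 and 3 had an unadjusted p under 0.05.

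After the miR-638 mimic, 1 of 15 complex I assembly genes, COA1 with -0.29, and 1 of 21 complex IV assembly genes, LRPPRC with -0.29, were lower, and no gene of the other lists passed in limma, where 6 had an unadjusted p under 0.05. No subunit encoded by mitochondrial DNA was among the genes tested.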

How the data were processed

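Transcripts were measured on 24 arrays of 47323 probes, of which 30113 have 1 gene symbol, 8 several and 17202 none in the platform annotation used here. Per the file headers, the deposited table of signals gives every probe an intensity after background subtraction, without normalisation between arrays, together with a detection p-value; the software is not given in the sources used here. The authors also deposited log2 values, floored at 4 by a method not given in the sources used here, which served as an alternative. Kit and probe names are those of Illumina, although the design text names a different maker. Columns were matched to samples by name. The NC1 and NC2 pulldown columns are exchanged between the tables; values follow the names of the signal table.

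The intensities of an experiment were normalised together by neqc in limma 3.58.1 under R 4.3.3 (offset 16, background estimated from the detection p-values, quantile normalisation, log2). Genes, 1 probe each, were fitted with lmFit and eBayes (trend) over all groups of an experiment, with Benjamini-Hochberg adjustment over all genes tested and calls at an adjusted p under 0.05. In the mimic experiment the deviations of same-numbered arrays from their group means correlated at 0.68 to 0.77 in all 12 pairs. Those of differently numbered arrays ranged from -0.75 to 0.74. NC1 mimic 1 correlated at 0.74 with both miR-638 mimic 1 and miR-638 mimic 2, and at -0.74 with miR-638 mimic 3. The correlations thus show the split of replicates 1 and 2 from 3 and 4, and do not show pairing by number. The replicate number was used as a block for the mimic arrays, and blocked values are printed where a call or count changed. In the pulldown the same-numbered arrays ranged from -0.33 to 0.56, and the numbers were not taken to pair them. On simulated data with 12624 genes and the mimic design, 82% of changes of 1 log2 unit and 40% of changes of 0.5 were called. With 13084 genes and the miR-638 pulldown design, it was 85% and 38%. The simulated arrays were drawn independently and fitted without the block. The mimic figures therefore do not describe arrays that share the split of replicates 1 and 2 from 3 and 4, nor the blocked test. Each simulated gene had 1 SD in all groups. The members' median SD was 0.16 and 0.15 in the NC1 and NC2 pulldowns and 0.07 in each miRNA pulldown. The pulldown figures therefore do not describe that unequal spread. The number of arrays limits the precision.

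The members, their roles and the lists of other pathway genes were chosen with earlier results of these data known. Every member past the test is named, up to 20 per miRNA comparison and 8 in the others, with the 4 of smallest p where fewer passed, members whose probes differ in call in the miRNA and control comparisons, members not detected, and up to 3 genes of each other list. Alternatives changed the background correction, scaling, filter, probe choice, control, table, samples fitted and replicates.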

Additional observations from a re-analysis of the deposited data

Results flagged for a closer look

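Groups of 4 arrays were tested for 1 array apart from its group (Dixon's ratio of gap to range above its critical value), over 36 named members and 108 groups, where chance flags about 1 in 20. There were 3 such arrays, each low and each in another replicate of the miR-638 mimic. COX5A stood at 12.57 on replicate 1 and at 12.88 to 12.92 on the other 3 arrays. NDUFB11 stood at 10.54 on replicate 2 and at 10.79 to 10.84 on the others. COX7A2L stood at 11.34 on replicate 3 and at 11.55 to 11.56 on the others. None of these genes passed the mimic comparison in limma, with or without the replicate block.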

How the results depend on the processing

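Counts of members called within 1.5 times of the main count are not listed. Among values of single genes, calls were lost 148 times and gained 13 times with the direction kept; 34 of the losses were in the authors' value table, and 12, 12 and 11 came without miR-638 pulldown replicate 1, 2 and 3. For the miR-638 mimic the main count was 1, where 3.35% of all genes passed. Against NC1 alone 3 members passed (2.82% of all genes) and against NC2 alone 2 (6.88%). It was 6 with the replicate block (19.3%), 11 within replicates 1 and 2 (17.7%) and 5 within 3 and 4 (6.73%). For NC2 against NC1 mimic the main count was 5, where 10.1% of all genes passed. Here 21 members passed with the replicate block (33% of all genes), 13 within replicates 1 and 2 (28.1%) and 8 within 3 and 4 (17.1%). The authors' value table gave 2 members for the miR-638 pulldown (main 18), 3 for miR-17 (main 13), 4 for miR-638 against miR-17 (main 12) and 0 for the control pulldowns (main 1). Of all genes 0.703%, 1.57%, 1.01% and 0.0306% passed there, against 11.2%, 14.3%, 8.42% and 4.7% in the main setting. Fitting only the groups compared gave 31 for miR-638 against miR-17 (20.1% of all genes) and 0 for the control pulldowns (0.764%). The control pulldowns gave 2 members with probes detected on every array (6.07% of all genes) and 2 with the mean of all probes (4.64%). Leaving out 1 replicate gave 9 to 21 members for the miR-638 pulldown and 0 to 6 for the control pulldowns. The shares of all genes in those fits are not given here. In the pulldown the replicate number as a block, whose numbers did not all pair, gave 17, 13, 12 and 1 members in the 4 comparisons. Of all genes 11.6%, 14.2%, 7.81% and 4.4% passed under that block. NDUFS1 with miR-638 (adjusted p = 0.0539) and UQCRBP1 with miR-17 (0.0546) lost their calls under it in limma. Reversed signs were those of ATP5PF with miR-638, at -0.0873 in the authors' table and -0.37 with the mean of its probes, ATP5MJ between the miRNAs at 0.0922 and NDUFA10 between the control pulldowns at 0.79 in the authors' table, where the control columns are exchanged. The causes of the other changes were not tested. Signals near background limit NDUFC2, NDUFS1, NDUFB4 and COX6B2.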
